A study of Mus musculus with 15 samples.

Results

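Transcripts of the interleukin-1 family and of the inflammasome were followed in the liver and lung of mice fed with or without added plant sterols. The set held 10 genes, namely Il1a, Il1b, Il18 and Il33 among the ligands, Il1rn and Il1r2 among the inhibitors, the signalling receptor Il1r1, and the inflammasome genes Nlrp3, Pycard and Casp1. They were picked by gene name from count tables that list 54532 genes, and all 10 were found in the tables of both tissues. Male C57BL/6J wild-type mice received a control diet (CS) or the same kind of diet with 2% phytosterols (PS), and no group carried a transgene or deletion. They were labelled with an age of 28 weeks, the same span as the feeding period. By the paper they were already several weeks old when that feeding began, so their age at sampling was higher. Poly(A) RNA of single animals was sequenced, giving 4 CS and 5 PS livers and 3 CS and 3 PS lungs, and 6 of the mice gave both tissues. The comparison asks which inflammation-related transcripts differ between the dietary groups in each tissue.

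Interleukin-1α and interleukin-1β are cytokines that signal through the receptor IL1R1, whereas the antagonist IL1RN blocks that receptor and IL1R2 binds the ligands without signalling. Interleukin-1β and interleukin-18 are made as inactive precursors and are cut by caspase-1, which is switched on when a sensor such as NLRP3 and the adaptor ASC, the product of Pycard, assemble into an inflammasome. Interleukin-33 is a nuclear protein released by damaged barrier and stromal cells, and resident macrophages, called Kupffer cells in the liver, are a main source of interleukin-1β in both organs.

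Library totals ranged from 14410117 to 17625179 counts in liver and from 17934930 to 19396057 counts in lung. The labelled tissues carried their own markers, with 5 hepatocyte markers summing to between 78100 and 123000 CPM (counts scaled to a common library total) in the livers and 5 alveolar type II cell markers to between 19500 and 34500 CPM in the lungs. The liver of CS replicate 2 stood apart from the other livers, because it held the highest CPM of all 9 livers for Il1a, Il1b, Il18, Pycard and Casp1 and the lowest for Il33. Over all genes, 1 gene passed an adjusted p of 0.05 in liver with that library and 65 without it, while 5 passed without CS replicate 3 and 0 without any other single liver. In lung, 1542 genes passed, 802 higher and 740 lower in PS, or 412 higher and 946 lower when library totals alone set the scale. That lung count fell to 23 without CS replicate 1, to 26 without CS replicate 2, to 0 without CS replicate 3 and to 9 without PS replicate 2, and was 2949 without PS replicate 1. The lung of CS replicate 1 stood apart in hepatocyte markers, which summed to 139 CPM there and to between 10.5 and 42.5 CPM in the other lungs.

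In the mouse genome (GRCm38), Il1a and Il1b lie near each other on the minus strand of chromosome 2, at 129299610 to 129309972 and 129364570 to 129371139. Il1rn lies on the plus strand of the same chromosome at 24336853 to 24351494. Il1r1 and Il1r2 are neighbours on the plus strand of chromosome 1, at 40225080 to 40317257 and 40074079 to 40125231. The 250 bases before the annotated starts of Il1b and Il1a are shown because these paired ligand genes gave the lowest liver fold changes of the set. Both are RefSeq promoter windows of GRCm38.p6, read 5′ to 3′ on the minus strand, Il1b at chr2:129371140-129371389 and Il1a at chr2:129309973-129310222, and capitals mark every motif match found on either strand.
Il1b: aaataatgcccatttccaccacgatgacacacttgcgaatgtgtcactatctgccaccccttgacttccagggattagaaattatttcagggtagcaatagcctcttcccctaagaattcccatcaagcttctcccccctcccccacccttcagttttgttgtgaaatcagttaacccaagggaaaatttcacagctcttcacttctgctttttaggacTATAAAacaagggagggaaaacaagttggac
Il1a: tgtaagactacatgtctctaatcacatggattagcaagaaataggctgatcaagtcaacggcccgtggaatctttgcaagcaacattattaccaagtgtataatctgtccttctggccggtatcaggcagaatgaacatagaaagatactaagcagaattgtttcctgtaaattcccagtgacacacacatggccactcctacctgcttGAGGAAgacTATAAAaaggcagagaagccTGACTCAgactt
In both windows the capitals include the TATA box letters TATAAA, at positions -31 to -26 before the start of Il1b and -32 to -27 before that of Il1a. TATAAA was held on either strand by 12.4% of 32851 promoter windows of this length. The Il1a window also held a PU.1 core, GAGGAA, at -41 to -36, found in 23.3% of windows, and an AP-1 pattern, TGANTCA, at -12 to -6, found in 6.7%, which reads the same on both strands. None of these matches overlapped another. The C/EBP pattern TTGCNNAA, held by 9.6% of windows, had no match with these letters in either window.

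In the liver, Il1b was lower and Il1r1 was higher in PS than in CS, and neither passed the adjusted threshold. Of the 10 members, 8 had enough counts for the edgeR test, and none of the 8 passed an adjusted p of 0.05. With DESeq2, which tested all 10, none passed either. Over all genes, edgeR called 0.00758% of 13195 tested and DESeq2 called 127 of 24485. At an unadjusted p of at most 0.05 there was 1 higher member, Il1r1, and 1 lower member, Il1b, against a background of 7.55% of all genes. No tested member had CPM ranges that were separate between the diets, as 3.63% of all genes had. The median log2 fold change of the 8 members was -0.02, beside -0.03 over all genes tested.

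Il1b, the main secreted ligand, was at 5.08, 5.32, 1.92 and 4.80 CPM in CS replicates 1 to 4 and at 0.309, 2.79, 0.641, 1.69 and 0.862 CPM in PS replicates 1 to 5. The CS livers of replicates 1, 2 and 4 lay above every PS liver, whereas CS replicate 3 lay within the PS range, below PS replicate 2. Mean Il1b was 4.28 ± 1.59 CPM (SD, n = 4) in CS and 1.26 ± 0.994 CPM (SD, n = 5) in PS. The fitted value was 3.35-fold lower in PS, a log2 fold change of -1.74 (SE 0.54, 95% interval -2.93 to -0.55), with an unadjusted edgeR p of 0.00789 and an adjusted p of 0.411. These values rest on 33 to 92 Il1b reads in a CS liver and 4 to 49 in a PS liver. Il1b and Il1r1 were also among the liver genes that the study listed from these samples, which makes their direction no independent evidence. The paper reports a significant decrease of Il1b in PS livers and shows RT-qPCR of liver inflammation genes. Its liver totals, 727 genes higher and 651 lower, equal those of DESeq2 here at an unadjusted p of at most 0.05. Leaving out any single liver kept the Il1b fold change between -2.26 and -1.51 on the log2 scale.

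Il1a, the other ligand of IL1R1, was at 1.71, 5.05, 1.22 and 1.86 CPM in the CS livers and at 2.32, 1.42, 0.875, 1.80 and 0.995 CPM in the PS livers. Apart from CS replicate 2, which was the highest, the CS livers lay inside the PS range, and PS replicates 3 and 5 lay below every CS liver. Its log2 fold change was -0.73 (SE 0.47, adjusted p = 0.777, edgeR), and it was -0.11 without CS replicate 2.

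Il18, which is made by many cell types, macrophages among them, and needs caspase-1 to mature, was at 3.97, 9.97, 4.47 and 9.67 CPM in CS and at 9.58, 7.05, 7.87, 7.98 and 7.63 CPM in PS. The PS livers lay inside the CS range, and the CS livers fell into a low and a high pair. The log2 fold change was 0.19 (SE 0.30, adjusted p = 0.955, edgeR).

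Il33, the nuclear alarmin, was scarce in liver, at 0.883, 0.0674, 0.696 and 0.832 CPM in CS and 1.47, 1.36, 1.11, 1.24 and 0.464 CPM in PS. In 4 of the 5 PS livers it lay above every CS liver, while PS replicate 5 lay inside the CS range and CS replicate 2 held 1 read. The log2 fold change was 0.84 (SE 0.58, 95% interval -0.43 to 2.12, adjusted p = 0.807, edgeR), and 0.48 without CS replicate 2.

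**Figure D1:**
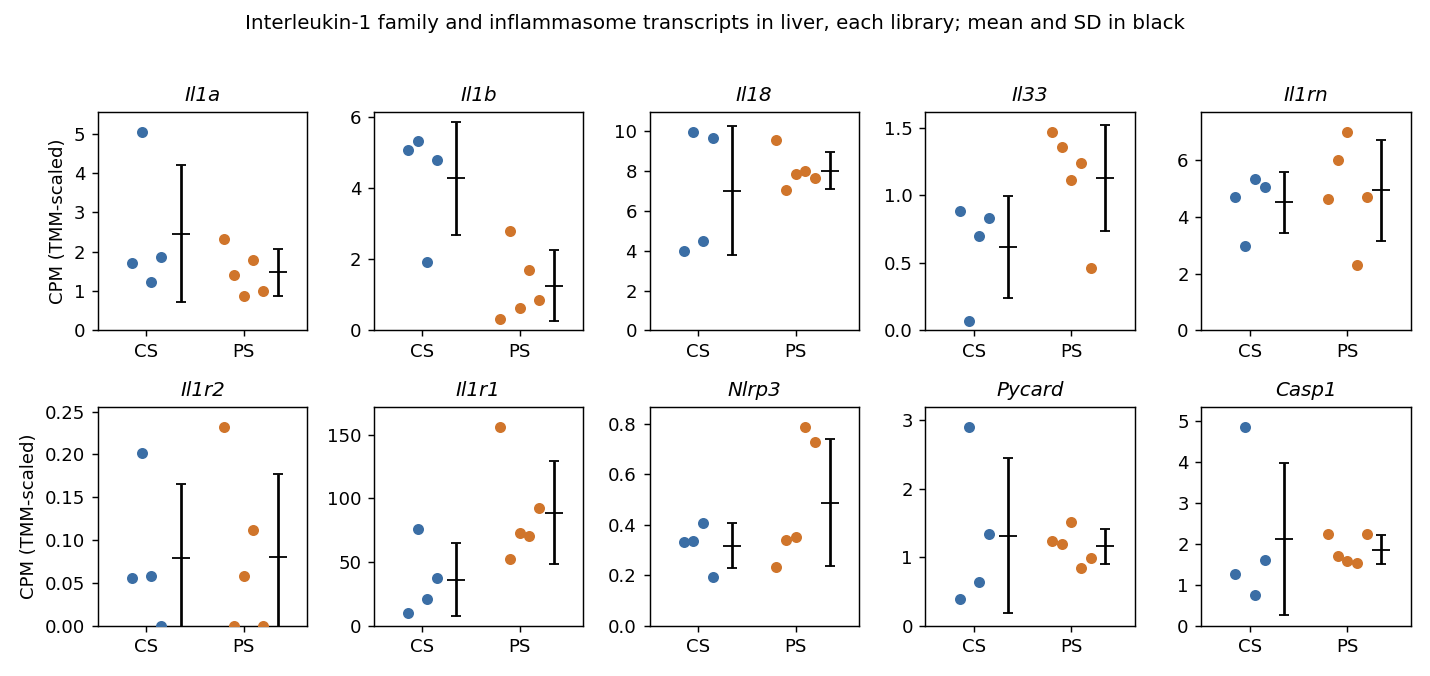
CPM (TMM-scaled, linear axes from 0) of each of the 10 members in each liver, with CS in blue and PS in orange in order of replicate number and the mean ± SD in black. For Il1b, 3 of 4 CS livers sit above every PS liver, and for Il1r1, 3 of 4 CS livers sit below every PS liver; CS replicate 2 is the highest liver for Il1a, Pycard and Casp1.

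Among the inhibitors, Il1rn, the receptor antagonist, was at 4.69, 2.96, 5.34 and 5.06 CPM in CS livers and at 4.64, 6.02, 7.0, 2.30 and 4.71 CPM in PS livers. The diets overlapped, with the lowest and the highest value both in PS, and the log2 fold change was 0.13 (SE 0.32, adjusted p = 0.977, edgeR). Il1r2, the decoy receptor, was at the limit of detection in liver, with 0 to 3 reads per library in each diet. Its mean was 0.0788 CPM in CS and 0.0805 CPM in PS (exact permutation test over 126 assignments, two-sided p = 0.952), and such counts could not show a difference.

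Because ligand and antagonist compete for 1 receptor, their levels per length were also set against each other within each library, as FPKM (fragments per kilobase of gene length and per sequenced fragment total). The ratio of Il1rn to Il1b was 0.318, 0.192, 0.961 and 0.363 in the CS livers and 5.17, 0.745, 3.76, 0.471 and 1.88 in the PS livers. On that scale antagonist transcripts were below Il1b in all 4 CS livers and above it in PS replicates 1, 3 and 5. The scale divides by all annotated exon bases, 5535 for Il1rn and 1907 for Il1b. By reads, Il1rn was above Il1b in CS replicates 3 (92 against 33) and 4 (79 against 75). It was below Il1b in CS replicates 1 (85 against 92) and 2 (44 against 79). The ratio of Il1b to Il1a ran from 1.09 to 3.07 in CS and from 0.138 to 2.03 in PS. These ratios were not tested, since they restate the Il1b difference.

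Il1r1, the signalling receptor, had the highest median FPKM of the set over all livers and was at 10, 75.6, 20.8 and 37.6 CPM in CS replicates 1 to 4. In PS replicates 1 to 5 it was at 156, 52.1, 72.4, 70.7 and 92.6 CPM. The CS livers of replicates 1, 3 and 4 lay below every PS liver, and CS replicate 2 lay within the PS range. The fitted value was 2.47-fold higher in PS, a log2 fold change of 1.30 (SE 0.51, 95% interval 0.18 to 2.42), with an unadjusted edgeR p of 0.0265 and an adjusted p of 0.568. Without CS replicate 2 the log2 fold change was 1.96 with an adjusted p of 0.0772, and over the other single libraries left out it stayed at or above 0.99.

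Of the inflammasome members, the adaptor gene Pycard was at 0.386, 2.90, 0.638 and 1.34 CPM in CS livers and 1.24, 1.19, 1.52, 0.843 and 0.995 CPM in PS livers. Casp1, the effector protease, was at 1.27, 4.85, 0.755 and 1.6 CPM in CS and 2.24, 1.71, 1.57, 1.52 and 2.25 CPM in PS. In both genes CS replicate 2 lay above all PS livers, and the other CS livers reached into or below the PS range. The log2 fold changes were -0.17 for Pycard (SE 0.54, adjusted p = 0.981, edgeR) and -0.18 for Casp1 (SE 0.49, adjusted p = 0.978, edgeR), and both turned positive, 0.56 and 0.62, without CS replicate 2. Nlrp3, the sensor, had 3 to 7 reads in a CS liver and 3 to 14 in a PS liver. Its mean was 0.317 CPM in CS and 0.488 CPM in PS (exact permutation test, two-sided p = 0.31, where the smallest p this design allows is 0.00794), with PS replicates 4 and 5 the highest.

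Macrophage markers were also measured beside Il1b in the liver. Each of 5 Kupffer cell markers (Clec4f, Timd4, Vsig4, Cd5l and Marco) and each of 8 general macrophage markers had a negative log2 fold change in PS, with medians of -0.78 and -0.62, and none passed an adjusted p of 0.05. The summed Kupffer markers ran from 159 to 226 CPM in CS and from 51.0 to 179 CPM in PS, and the summed macrophage markers from 206 to 285 CPM and from 73.6 to 273 CPM. The PS liver with 273 CPM, replicate 5, had Il1b at 0.862 CPM. The 5 endothelial markers were also all negative (54.0 to 83.8 CPM in CS, 31.1 to 66.4 CPM in PS), whereas the 8 neutrophil markers summed to 3.66 to 7.56 CPM in CS and 3.20 to 7.34 CPM in PS. Per 100 CPM of summed Kupffer markers, Il1b stood at 2.60, 2.36, 1.20 and 2.33 CPM in the CS livers and at 0.422, 2.29, 1.26, 1.23 and 0.482 CPM in the PS livers. On that scale the means were 2.12 ± 0.627 (SD, n = 4) and 1.14 ± 0.757 (SD, n = 5), and CS replicate 3 and PS replicates 2, 3 and 4 overlapped. The part of these cells in the Il1b difference was not tested, and in bulk tissue fewer macrophages and less Il1b RNA per macrophage cannot be told apart.

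**Figure D2:**
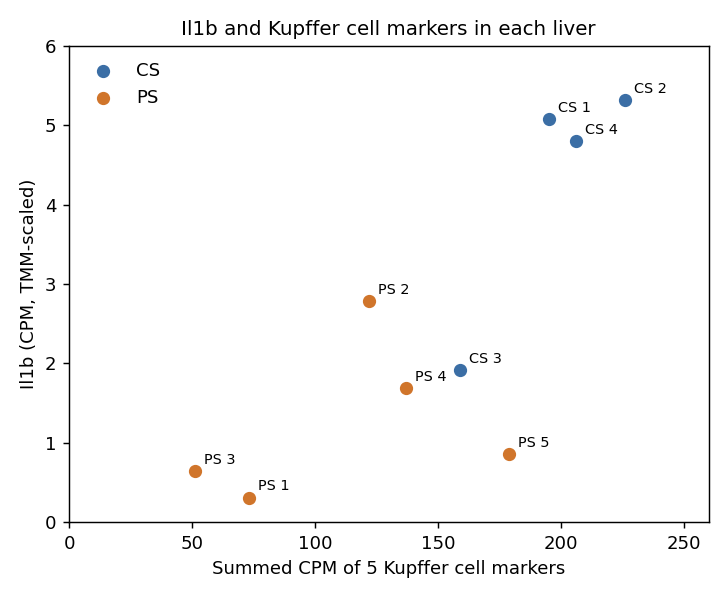
Il1b (CPM, vertical axis) against the summed CPM of 5 Kupffer cell markers (horizontal axis) in each of the 9 livers, labelled by diet and replicate, with both axes linear from 0. CS replicates 1, 2 and 4 lie at the upper right, and PS replicate 5 combines 179 CPM of the markers with 0.862 CPM of Il1b.

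Some reads of 3 members could come from the opposite strand, since the strand setting of the counting was not given in the sources used here. In the GENCODE M21 annotation 25 of the 1907 exon bases of Il1b are shared with the antisense gene Il1bos, 222 of 1974 of Il1a with Gm14023 and 485 of 3800 of Pycard with Gm45205. Il1bos was counted with 0 to 4 reads in a liver and 5 to 14 in a lung, Gm14023 with 1 to 12 and 3 to 8, and Gm45205 with 0 to 2 and 0 to 10. In liver Gm14023 summed to 56 reads beside 273 of Il1a. No other gene's transcripts matched a member at 95% identity over 200 bases or more.

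In the lung, no member passed the adjusted threshold, and the decoy receptor Il1r2 and the ligand Il18 were the members furthest above CS. All 10 members were tested, and 0 passed an adjusted p of 0.05 with edgeR or with DESeq2. Over all genes, edgeR called 9.22% of 16717 tested and DESeq2 called 2944 of 28695. At an unadjusted p of at most 0.05, 2 members were higher and 0 were lower, beside 30.1% of all genes in either direction. The same 2 were the members with CPM ranges separate between the diets, as were 36.0% of all genes, so neither share exceeded the background. The median log2 fold change of the members was 0.34, beside 0.01 over all genes tested, with 7 positive and 3 negative.

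Il1b was at 43.4, 12.1 and 24.5 CPM in CS lungs and at 29.2, 7.70 and 15.2 CPM in PS lungs. The diets overlapped and the spread within each diet was wide, from 236 to 858 reads in CS and from 138 to 494 in PS. The log2 fold change was -0.62 (SE 0.57, 95% interval -1.95 to 0.71, adjusted p = 0.496, edgeR) and was -0.11 without CS replicate 1. The part of the hepatocyte RNA of that lung in its Il1b, Il33 and Nlrp3 values was not tested. Its hepatocyte markers summed to 139 CPM, beside 78100 to 123000 CPM in the livers. Those livers held at most 5.32 CPM of Il1b, 1.47 CPM of Il33 and 0.787 CPM of Nlrp3. Il1a was at 3.03, 2.06 and 2.55 CPM in CS and 3.79, 3.57 and 2.32 CPM in PS, with overlapping ranges and a log2 fold change of 0.34 (SE 0.32, adjusted p = 0.507, edgeR).

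Il18 was at 7.08, 6.37 and 6.51 CPM in CS lungs and at 8.52, 16.0 and 7.61 CPM in PS lungs. Every PS lung lay above every CS lung, and PS replicate 2 was far above the other PS lungs. The log2 fold change was 0.68 (SE 0.30, 95% interval 0.01 to 1.36), with an unadjusted edgeR p of 0.0481 and an adjusted p of 0.162, and it was 0.28 without PS replicate 2.

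Il33, which alveolar type II and stromal cells of the lung are known to express, was at 81.1, 53.2 and 54.7 CPM in CS and at 58.2, 65.2 and 36.5 CPM in PS. The highest lung was CS replicate 1 and the lowest PS replicate 3, with the remaining lungs mixed. Its log2 fold change was -0.24 (SE 0.25, adjusted p = 0.54, edgeR), and it was -0.04 without CS replicate 1 and -0.03 without PS replicate 3.

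Il1r2, the decoy receptor, was at 2.63, 1.03 and 2.39 CPM in CS lungs and at 3.85, 3.96 and 4.36 CPM in PS lungs. The PS lungs lay close together above all CS lungs. The fitted value was 2.01-fold higher in PS, a log2 fold change of 1.01 (SE 0.38, 95% interval 0.16 to 1.86), with an unadjusted edgeR p of 0.0252 and an adjusted p of 0.111, on 20 to 52 reads in CS and 65 to 79 in PS. Without CS replicate 2, the lowest lung, it was 0.67 with an adjusted p of 0.298. Il1r2 is known to be expressed by neutrophils, and the 8 neutrophil markers summed to 123 to 378 CPM in CS lungs and 239 to 509 CPM in PS lungs. Of 7 tested markers 6 were positive and 1 passed the adjusted threshold, beside 9.22% of all genes tested. That was Csf3r, named after its values were seen (log2 fold change 1.06, adjusted p = 0.0204, edgeR). PS replicate 3, the highest lung for Il1r2, had the lowest sum of the PS lungs, 239 CPM. CS replicates 1 and 3 had sums of 378 and 337 CPM. The part of neutrophils in the Il1r2 difference was not tested. Of the other cell type markers, 1 of 8 macrophage markers and 1 of 5 endothelial markers passed in lung, beside the same 9.22% of all genes. Both were lower in PS and both were named after their values were seen. Of the 8 macrophage markers 5 were positive and 3 negative, and of the 5 endothelial markers 2 were positive and 3 negative. Adgre1, a macrophage surface protein, had a log2 fold change of -0.81 (adjusted p = 0.0448, edgeR) and Kdr, an endothelial growth factor receptor, one of -0.95 (adjusted p = 0.0412, edgeR), while the medians of these lists were 0.33 and -0.07.

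Il1rn was at 12.5, 5.14 and 8.14 CPM in CS lungs and 10.3, 7.26 and 4.69 CPM in PS lungs, overlapping throughout, with a log2 fold change of -0.22 (SE 0.38, adjusted p = 0.735, edgeR). The FPKM ratio of Il1rn to Il1b was 0.0996, 0.146 and 0.114 in CS lungs and 0.121, 0.325 and 0.106 in PS lungs, so that Il1b exceeded its antagonist in each of the 6 lungs. Il1r1 was at 54.7, 45.2 and 45.4 CPM in CS and 60.7, 70.8 and 51.6 CPM in PS. Only PS replicate 3 fell inside the CS range, and the log2 fold change was 0.33 (SE 0.16, 95% interval -0.04 to 0.71, adjusted p = 0.206, edgeR).

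The inflammasome members overlapped between the diets in lung. Nlrp3 was at 6.06, 1.80 and 2.82 CPM in CS and 4.50, 3.63 and 3.42 CPM in PS, a log2 fold change of 0.11 (SE 0.43, adjusted p = 0.89, edgeR). It was 0.71 without CS replicate 1 and -0.23 without CS replicate 2, so its direction rested on single libraries. Pycard was at 11.3, 7.09 and 9.23 CPM in CS and 14.7, 14.5 and 9.05 CPM in PS, a log2 fold change of 0.47 (SE 0.26, adjusted p = 0.265, edgeR). Casp1 was at 9.30, 8.74 and 12.9 CPM in CS and 16.2, 14.7 and 8.77 CPM in PS, a log2 fold change of 0.36 (SE 0.27, adjusted p = 0.405, edgeR). For both genes PS replicates 1 and 2 lay above the CS lungs and PS replicate 3 lay with them.

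**Figure D3:**
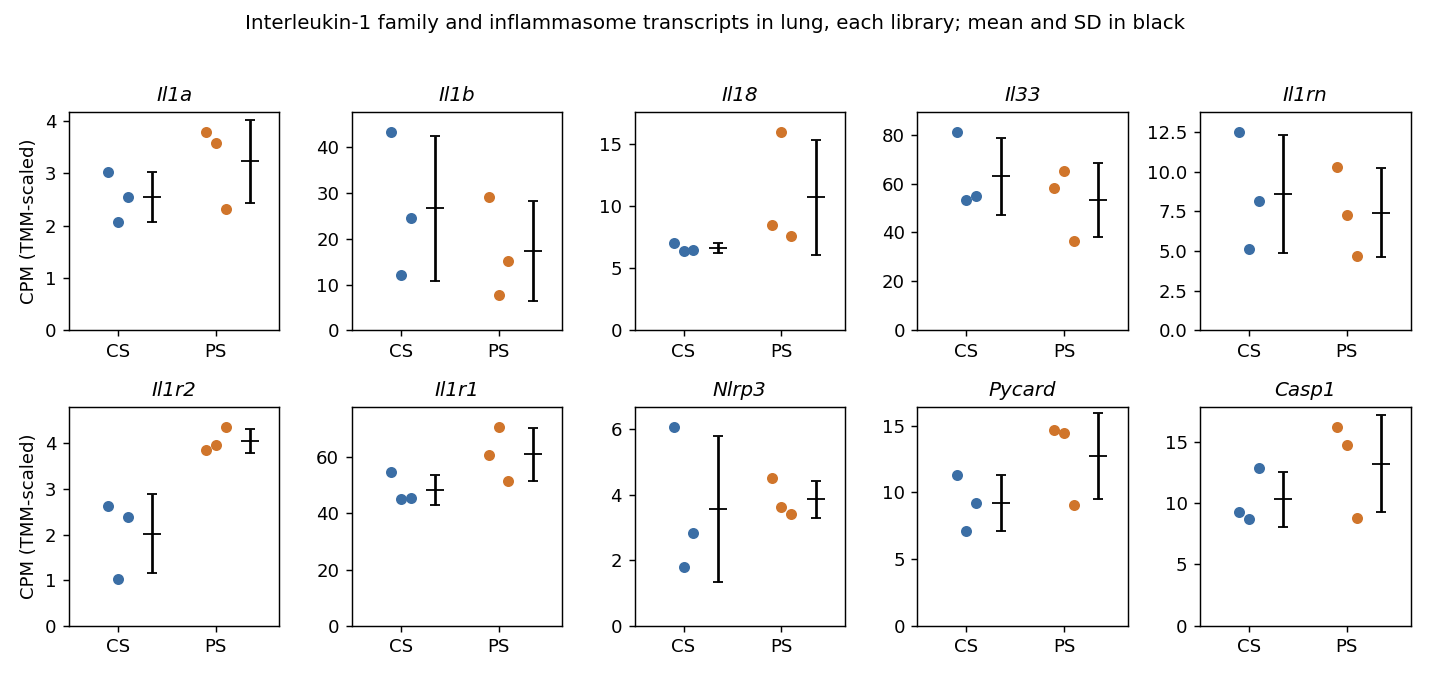
CPM (TMM-scaled, linear axes from 0) of each of the 10 members in each lung, CS in blue and PS in orange in order of replicate number, with the mean ± SD in black. The PS lungs sit above all CS lungs for Il1r2 (3.85 to 4.36 against 1.03 to 2.63 CPM) and Il18 (7.61 to 16.0 against 6.37 to 7.08 CPM), and overlap them for the other genes.

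The diet difference was also compared between the tissues by an interaction term. None of the 8 members with enough liver counts passed at an adjusted p of 0.05 or at an unadjusted p of 0.05, beside 0.0226% and 10.9% of 17696 genes. Il1r2 and Nlrp3 entered this fit through their lung counts, and their few liver reads could not show such a difference. The difference of the log2 fold changes, lung minus liver, was 1.08 for Il1b (SE 0.82, 95% interval -0.67 to 2.82, adjusted p = 0.641, edgeR) and -1.02 for Il1r1 (SE 0.65, 95% interval -2.40 to 0.35, adjusted p = 0.57, edgeR). The smallest unadjusted p was that of Il33, 0.0812, with a difference of -1.11. With the mouse as a block over the 6 mice that gave both tissues, Il1b (2.00, unadjusted edgeR p of 0.0413) and Il1r1 (-1.64, unadjusted edgeR p of 0.0386) passed the unadjusted threshold and had an adjusted p of 0.872. A lower Il1b in the liver alone, or a higher Il1r1 in the liver alone, was not shown.

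**Figure D4:**
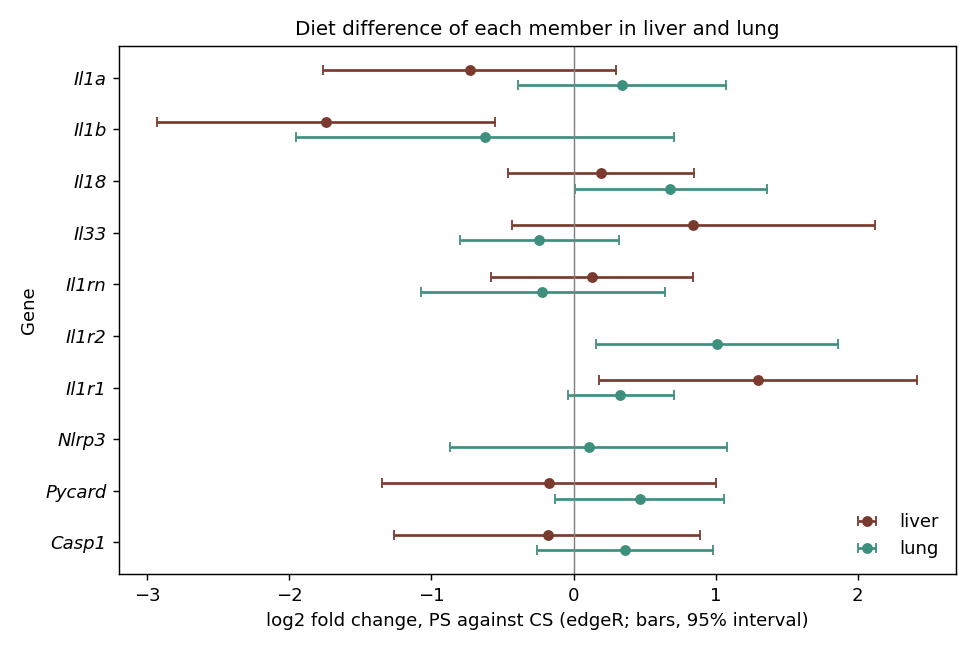
Log2 fold change of PS against CS for each member in liver (brown) and lung (green), with bars for the 95% interval of the edgeR fit and a line at 0. Intervals lie clear of 0 for Il1b and Il1r1 in liver and for Il1r2 and Il18 in lung (0.01 to 1.36 for Il18), no adjusted p passed 0.05, and Il1r2 and Nlrp3 have no liver value because their counts were too low.

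Several members differed in level between the tissues. By deposited FPKM, Il33, Il1b, Il1r2, Nlrp3, Pycard and Casp1 were higher in lung, without overlap between the 15 libraries of the tissues. These were 6 of 10 members, beside 67.3% of 17696 genes, so the share did not exceed the background. Il1r2 and Nlrp3 were among the genes compared only through their lung counts. With CPM scaled jointly over both tissues, Il1b, Nlrp3, Pycard and Casp1 overlapped. Il33 ran from 0.0234 to 0.515 FPKM in liver and from 12.5 to 28.3 FPKM in lung. Il1b ran from 0.164 to 2.80 FPKM in liver and from 4.09 to 22.9 FPKM in lung. Il1r2 ran from 0 to 0.123 FPKM in liver and from 0.541 to 2.26 FPKM in lung, Nlrp3 from 0.0484 to 0.199 and from 0.445 to 1.51 FPKM, Pycard from 0.104 to 0.765 and from 1.87 to 3.91 FPKM, and Casp1 from 0.517 to 3.25 and from 5.80 to 10.9 FPKM. The remaining 4 members overlapped, with Il1r1 at 1.61 to 24.8 FPKM in liver and 7.11 to 11.3 FPKM in lung and Il18 at 3.94 to 9.71 and 6.20 to 15.7 FPKM.

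In the joint fit of all libraries, 7 of the 8 members with enough counts in both tissues passed an adjusted p of 0.05 between lung and liver, beside 76.7% of all genes. The log2 fold changes, lung against liver, were 4.71 for Il33 (SE 0.30), 1.82 for Il1b (SE 0.41), 1.77 for Pycard (SE 0.33) and 1.19 for Casp1 (SE 0.31), and these 4 also passed as higher with library totals alone and with the mouse as a block. Il1r2 and Nlrp3 entered the fit only through the lungs, where they are high, so no fold change is given for them; Il1r2 had 0 reads in 3 of 9 livers. The 3 lower calls, Il1r1 (-1.43), Il18 (-1.21) and Il1a (-0.78), depended on the scaling, because with library totals alone they were -0.02, 0.19 and 0.60 and none passed. Il1a also lost its call with the mouse as a block (-0.54, adjusted p = 0.307, edgeR), with DESeq2 size factors (0.0954), with the DESeq2 test (0.0773), with no filter (0.0968) and in 9 of 15 fits without 1 library. Il1rn (-0.62, adjusted p = 0.0509) was 0.75 with an adjusted p of 0.0149 with library totals alone. The scale itself moved the median log2 fold change of all genes from 0.17 to 1.55, and the calls from 7489 higher and 6090 lower to 12795 higher and 2608 lower. On the jointly scaled CPM only Il33 and Il1r2 had no overlap between the tissues, as 51.5% of all genes.

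Ordered by median FPKM over the livers of both diets, the set ran Il1r1 (11.4), Il18 (7.63), Casp1 (1.09), Il1b (1.03), Il1a (0.885), Il1rn (0.866), Pycard (0.320), Il33 (0.312), Nlrp3 (0.0857) and Il1r2 (0.0305). The order in either tissue rests on dividing by all annotated exon bases, such as 5535 for Il1rn, 3800 for Pycard and 1907 for Il1b. Il1r1 was above Il18 in 6 of 9 livers, with Il18 the higher in 3 of 4 CS livers, and Il18 was above Casp1 in 9 of 9. Casp1 was above Il1b, Il1b above Il1a and Il1a above Il1rn in 5 of 9 livers each, and the order differed by diet, since Il1b exceeded Il1a and Il1rn in 4 of 4 CS livers but exceeded Il1a in 1 and Il1rn in 2 of 5 PS livers. In lung the order was Il33 (19.7), Il1b (10.4), Il1r1 (8.35), Casp1 (7.43), Il18 (7.11), Pycard (2.71), Il1r2 (1.72), Il1a (1.42), Il1rn (1.40) and Nlrp3 (0.871). Il33 was above Il1b in 6 of 6 lungs, Il18 above Pycard in 6 of 6 and Il1rn above Nlrp3 in 6 of 6, while Il1b, Il1r1, Casp1 and Il18 lay within each other's spread. The FPKM ratio of Il1b to Il1a was 2.23 to 14.8 in lung and 0.138 to 3.07 in liver.

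**Figure D5:**
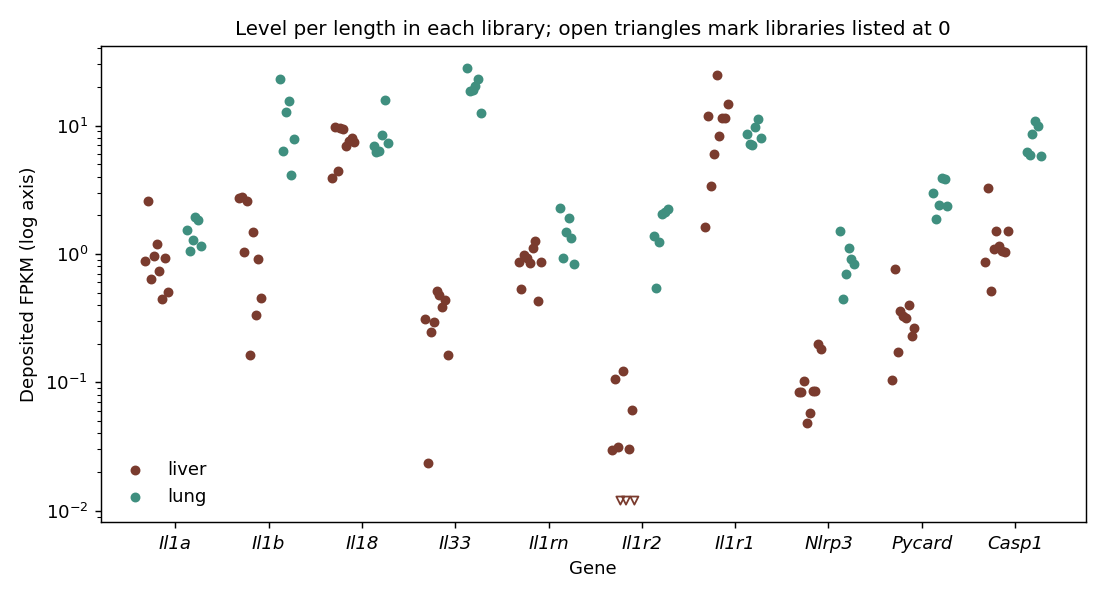
Deposited FPKM (logarithmic vertical axis) of each member in each of the 9 livers (brown) and 6 lungs (green), in which open triangles mark livers listed at 0 and drawn at the foot of the axis. Il33, Il1b, Il1r2, Nlrp3, Pycard and Casp1 sit higher in every lung than in any liver on this scale, and Il1r1 runs from 1.61 to 24.8 FPKM in liver. With CPM scaled jointly over both tissues, Il1b, Nlrp3, Pycard and Casp1 overlapped.

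Beyond the 10 members, 63 genes of the same pathways were listed, covering other ligands, receptors, sensors, caspases, signalling proteins and known response genes. In liver 47 of the 63 were tested, of which 19 were positive and 28 negative (median log2 fold change -0.15), and 0 passed an adjusted p of 0.05 with edgeR or with DESeq2, while 4 had an unadjusted p of at most 0.05, beside 7.55% of all genes. Sigirr, a receptor of the family that dampens its signalling, was at 10.6 to 14.2 CPM in CS and 16.1 to 22.3 CPM in PS, with every PS liver above every CS liver (log2 fold change 0.63, SE 0.17, adjusted p = 0.307). Tab2 and Irak2, which carry the signal inside the cell, had log2 fold changes of -0.39 (adjusted p = 0.565, edgeR) and -0.40 (adjusted p = 0.594, edgeR). Il1rap, the shared co-receptor of IL1R1, named here after its values were seen, had 0.37 (adjusted p = 0.619, edgeR). Of 10 tested known response genes 8 were positive, and none passed.

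In lung 53 of the 63 were tested, and 3 were higher and 2 were lower in PS at an adjusted p of 0.05, beside 9.22% of all genes. Gsdmd, whose product forms the membrane pore through which interleukin-1β leaves the cell, was at 42.0, 41.0 and 40.6 CPM in CS lungs and 56.2, 82.8 and 83.4 CPM in PS lungs. It rose with a log2 fold change of 0.85 (SE 0.18, adjusted p = 0.0314, edgeR). Naip5 and Naip6, sensors of bacterial flagellin, rose by 1.61 (SE 0.36, adjusted p = 0.0359, edgeR) and 1.13 (SE 0.29, adjusted p = 0.0472, edgeR), and reads may be split between these near copies. Ikbkg, a subunit of the kinase that releases NF-κB, fell by 0.73 (SE 0.17, adjusted p = 0.0378, edgeR), and Nek7, a kinase that NLRP3 needs for its activation, was at 216, 216 and 199 CPM in CS and 154, 144 and 148 CPM in PS, where it fell by 0.50 (SE 0.13, adjusted p = 0.0477, edgeR). All 5 calls were lost when CS replicate 1, 2 or 3 or PS replicate 2 was left out, with adjusted p from 0.0862 to 0.16, and those of Naip6 and Nek7 also without PS replicate 3 (0.0574 and 0.0509). With any single lung left out, the log2 fold changes ran from 0.76 to 1.01 for Gsdmd, 1.24 to 1.85 for Naip5 and 0.91 to 1.29 for Naip6. They ran from -0.84 to -0.59 for Ikbkg and from -0.53 to -0.48 for Nek7. On the deposited FPKM with limma 2 of the 5 calls remained, Gsdmd and Ikbkg. The call of Nek7 was also lost with no filter (adjusted p = 0.0651, edgeR) and that of Naip6 with library totals (adjusted p = 0.0613, edgeR). Other settings added calls, namely Tlr4 with library totals, Tlr4 and Tnfaip3 with DESeq2, and Tlr4, Tnfaip3 and Il6 with no filter, which made 7 calls under each of the last 2 settings. None of these genes passed the test of a difference between the tissues (adjusted p = 0.37 for Gsdmd and 0.366 for Naip5, edgeR).

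The genes whose log2 CPM followed Il1b most closely differed between the tissues. Over the 9 livers they were Mapkapk2 (Pearson r = 0.968), Ppp2r5a (0.946), Slc44a2 (0.942), Ncaph2 (0.935) and Usp4 (0.932), of 11671 genes compared. Over the 6 lungs they were Fbxl15 (0.994), Adam23 (0.990), Dcaf13 (0.987), Gjb2 (0.987) and Igkv6-15 (0.985), of 14381 genes compared. No gene was in both groups of 5, and with so few libraries, which share their diets, such values describe these samples.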

How the data were processed

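Per the labels and the paper's methods, the authors prepared poly(A) libraries from liver and lung, aligned reads to mm10 with HISAT2 2.0.5 and counted them per gene with featureCounts 1.5.0-p3, and DESeq2 1.20.0 is also named in the submitters' processing notes. The gene model release and the strand setting were not given in the sources used here. The deposited read counts are whole numbers, not normalized, and were tested here. The deposited FPKM values, which the authors computed, equal the count over gene length times 1 factor per library and served for comparing levels between genes.

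Counts were fitted with edgeR 4.0.16 (R 4.3.3; TMM scaling, filterByExpr, robust quasi-likelihood test), PS against CS in each tissue and all 15 libraries jointly for the difference of diet effects and for lung against liver. P-values were adjusted by Benjamini-Hochberg over all genes tested. CPM are counts over TMM-scaled totals. The 2 liver members below the filter were compared by an exact permutation test. Alternatives were DESeq2 1.42.0, its size factors, library totals (added after seeing the data), a filter set to none or to 10 counts in each library, limma-trend (limma 3.58.1) on log2(FPKM + 1) and log2(FPKM + 0.1), replicate and mouse blocks, and leaving out each library. The main fits were also run on simulated counts with a single dispersion for all genes. Within each tissue so were DESeq2, edgeR with its size factors, and limma on CPM. The other alternatives were not run on simulated counts. By the mouse numbers in the labels 6 mice gave both tissues, and the deviations of their liver and lung from the group means correlated at -0.083 to 0.164.

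The members, pathway lists and marker lists were chosen with earlier results of these data known. Pathway genes outside the 10 were named if they passed an adjusted p of 0.05 in a diet comparison or were among the 5 of smallest p in a tissue, members counted, and the genes most like Il1b were the 5 of highest Pearson correlation of log2 CPM (prior count 2) with a protein-style name. Near copies were sought with BLAST+ among GENCODE M21 transcripts. Intervals are those of the fit, and the precision of low members is limited by their few reads.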

Additional observations from a re-analysis of the deposited data

Results flagged for a closer look

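Of 20 groups of 4 or 5 livers looked at, 1 for each member and diet, 2 held a library far from the rest, and chance alone gives about 1 in 20. For Il1a the liver of CS replicate 2 stood at 5.05 CPM, with the other CS livers between 1.22 and 1.86 CPM, so that the gap to the nearest of them was 0.834 of the whole range (limit for 4 samples 0.829). For Il1b the liver of CS replicate 3 stood at 1.92 CPM, with the other CS livers between 4.80 and 5.32 CPM and a gap of 0.847 of the range.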

How the results depend on the processing

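No tested member, in liver, lung or the difference of the diet effects, passed an adjusted p of 0.05 under any alternative run. In liver the number of all genes called, 1, was 127 with DESeq2, 26 with no filter, 2 with at least 10 counts in every library, 6 and 4 with limma on log2(FPKM + 1) and log2(FPKM + 0.1), 0 with library totals and 0 to 65 leaving out 1 library. The 2 liver members at an unadjusted p of at most 0.05 became 1 with no filter and with at least 10 counts, where 5 members were tested, and 1 to 2 leaving out 1 library. In lung 1542 genes became 2944 with DESeq2 and 0 to 2949 leaving out 1 library, and the 2 members became 1 under both limma fits and library totals and 0 to 4 leaving out 1 library. For the difference of diet effects the 4 genes called became 189 with DESeq2, 10 with no filter and 0 to 12 leaving out 1 library, with 0 to 1 members at an unadjusted p.

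Directions turned for weak values. In liver Casp1 was 0.0 and 0.11 under the limma fits and -0.47 to 0.62 leaving out 1 library, Pycard 0.07 with log2(FPKM + 0.1) and -0.49 to 0.56, Il1rn -0.03 to 0.30 and Il18 -0.01 to 0.41. In lung Il1rn ran from -0.53 to 0.13 and Nlrp3 from -0.23 to 0.71 leaving out 1 library. In the difference of diet effects Nlrp3 ran from -0.88 to 0.06, Il1rn from -0.71 to 0.0, Casp1 from -0.28 to 0.77 and Pycard from -0.11 to 0.88, where Nlrp3, too low in liver for a diet test there, gives no direction. Between the tissues library totals gave 0.60 for Il1a, 0.75 for Il1rn and 0.19 for Il18. Apart from the scaling, whose construction sets the tissue values, the cause was not tested.

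Replicate numbers did not pair the animals, since same-numbered CS and PS libraries correlated at -0.358 to -0.029 in liver and -0.006 to 0.099 in lung, and 0 of 8 livers and 3 of 6 lungs matched their own number best. With the replicate block the liver count was 0 genes and 1 member, Casp1 was 0.06 and Pycard 0.18, and in lung Naip5, Naip6 and Nek7 lost their calls (adjusted p = 0.0537, 0.0681 and 0.0749, edgeR) and Tnfaip3 gained one. With the mouse as a block, the difference of diet effects had 0 genes called, 2 members at an unadjusted p and Nlrp3 at 0.11. Il1r2, Nlrp3 and Il33 in liver rest on few reads, which limits what can be seen there.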
